A study of Mus musculus with 4 samples.

Results

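Genes that make, sense and move cholesterol and fatty acids were described in 4 bulk RNA-seq libraries of primary mouse T cells. The members were 39 genes chosen by name for their known place in these pathways, with earlier results of these data known. They came out of 50600 genes counted in the files, 21764 of them protein-coding. They were placed in 7 roles by the enzymatic step or function that each is known for. All cells came from the inbred strain C57BL/6NJ, and the labels number the libraries as biological replicates 1 to 4 of 1 cell type. The labels name no genotype change, treatment or second group, leave the age unknown and the sex uncollected, and give 1 donor identifier to every library. The file headers add that the cells were activated in bulk and taken at 72 h, under a sample name that starts with mmTh0, and the protocol linked in the labels is named for differentiation of CD4+ T cells. The agents used for activation are not stated in the labels. Nothing in the labels shows whether the libraries came from separate animals or cultures, so the spread between them may be partly technical.

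Mammalian cells build cholesterol from acetyl-CoA through mevalonate, squalene and a series of sterol ring intermediates. The transcription factors SREBP-1 and SREBP-2 turn on this pathway and that of fatty acid synthesis. They are held in the endoplasmic reticulum with their escort SCAP by the INSIG proteins when sterol is plentiful, and are released to the Golgi and cut when it is scarce. T cells are known to raise both pathways on activation, since dividing cells need new membrane.

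Promoter windows were looked at first, since SREBP is known to act beside NF-Y and Sp1 at such genes. RefSeq windows on GRCm38.p6, running from 250 bases before to 50 after a gene's start, were held for 31 of the 39 members. The sterol regulatory element TCACNCCAC, sought on both strands, stood in 1 of these 31 (3.23%), Hmgcs1, beside 1.42% of 8614 protein-coding genes detected in the T cells and 1.44% of all 27025 symbols with a window. The NF-Y box CCAAT stood in 24 of 31 (77.4%), beside 43.5% of the detected genes and 41.1% of all. The Sp1 box GGGCGG stood in 25 (80.6%), beside 70.7% of the detected genes and 38.2% of all. The E-box CACGTG stood in 7 (22.6%), beside 12.1% and 8.09%, and the DR4 repeat known for binding LXR in none, beside 4 of all symbols. Only exact matches to these letters were counted, so near matches to the sterol element were not looked for. A gene with several windows was counted if any of them held the motif. The motifs were counted separately and their matches may share bases, and each share is a description of letters, not of bound sites. The first window below is the one member window with the sterol element, which is in capitals and starts at position -137 from the RefSeq start (chromosome 13, plus strand, chr13:119690101-119690400). For Hmgcs1 the RefSeq start lies 111 bases upstream of the gene's start in the count files, and all positions here are counted from RefSeq's.
Hmgcs1: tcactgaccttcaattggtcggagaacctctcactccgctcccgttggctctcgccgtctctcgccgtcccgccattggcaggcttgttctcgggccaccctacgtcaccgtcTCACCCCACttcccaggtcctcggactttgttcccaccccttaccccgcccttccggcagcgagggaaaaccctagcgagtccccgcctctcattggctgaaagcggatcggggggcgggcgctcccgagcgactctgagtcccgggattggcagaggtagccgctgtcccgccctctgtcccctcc
The next windows belong to the most abundant SREBP gene (chr15:82147019-82147318, plus strand) and to the INSIG gene of higher level (chr5:28071162-28071461, plus strand), chosen after their levels were seen, each with its NF-Y box, read on the minus strand, in capitals.
Srebf2: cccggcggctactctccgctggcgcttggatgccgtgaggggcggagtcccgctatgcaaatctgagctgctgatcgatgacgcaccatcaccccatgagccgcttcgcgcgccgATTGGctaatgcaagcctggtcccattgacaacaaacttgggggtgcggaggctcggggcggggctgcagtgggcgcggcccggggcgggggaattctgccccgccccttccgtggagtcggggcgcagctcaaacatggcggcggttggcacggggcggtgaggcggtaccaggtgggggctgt
Insig1: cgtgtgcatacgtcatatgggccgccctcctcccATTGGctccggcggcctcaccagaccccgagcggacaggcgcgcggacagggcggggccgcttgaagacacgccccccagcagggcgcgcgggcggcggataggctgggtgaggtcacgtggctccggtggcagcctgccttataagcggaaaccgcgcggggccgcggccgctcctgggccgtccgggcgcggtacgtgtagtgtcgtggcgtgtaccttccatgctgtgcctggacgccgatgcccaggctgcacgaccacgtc
In Srebf2 the NF-Y box begins at position -135 from the start and in Insig1 at -216, and Insig1 also held an E-box at -101.

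Levels are given in TPM, the count per exon length scaled to the same total in each library, as mean ± SD over 4 libraries. A gene counts as detected at 1 TPM or more in every library. Of the 39 members 38 were detected, beside 49.4% of protein-coding genes. The median of the members' mean levels was 80.0 TPM, beside 34.8 TPM over the 10754 detected protein-coding genes, and 13 members had a mean of 100 TPM or more, beside 20.3% of those genes. The members together took 4973 ± 346 TPM (4873, 4583, 5414 and 5023 TPM in replicates 1 to 4). Desaturation and elongation genes held the largest summed level of the 7 roles, 1393 ± 128 TPM, of which Scd2 alone had 763 TPM. Sterol transfer and efflux genes (136 ± 11.0 TPM, 3 members) and acyl-CoA activation genes (141 ± 9.01 TPM, 2 members) held the least. A sum depends on the size of a role, and the largest had 11 members. By median member level fatty acid synthesis (176 TPM) and sterol sensing and SREBP control (132 TPM) stood above desaturation and elongation (90.5 TPM). Acyl-CoA activation (70.6 TPM) stood above the squalene and sterol ring steps (48.8 TPM), and sterol transfer and efflux was lowest (10.7 TPM). Counts were also divided by the longest principal transcript in place of all exons, a choice made after seeing the data. Where that transcript was longer than the files' exon length, or none was named, the files' length was kept. On that scale desaturation and elongation still held the largest sum, 1036 ± 92.9 TPM. The 2 roles of lowest sum held 103 ± 8.78 and 101 ± 6.89 TPM, in the opposite order.

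The libraries held 49613182 to 94222415 counts. T-cell markers were abundant, with Cd4 at 1056 ± 62.8 TPM, and 4 of the 5 were detected. The exception was the CD8 gene Cd8a. Of the markers of other lipid-making cells, none of 3 hepatocyte and 4 adipocyte genes was detected. Their summed levels ran from 0 to 0.177 TPM and from 0 to 0.0463 TPM per library. None of 3 B-cell genes (summed level 1.26 to 2.28 TPM) or 3 fibroblast genes (0.651 to 1.07 TPM) was detected, and 1 of 4 macrophage genes was, Adgre1 at 3.21 ± 0.525 TPM (summed level 2.71 to 3.89 TPM). The X-inactivation transcript Xist was measured at 332, 150.1, 0.877 and 0.392 TPM in replicates 1 to 4, high in replicates 1 and 2 and low in the others. The Y-linked genes ran the other way, with Ddx3y at 0.0344, 0.0834, 49.0 and 45.8 TPM and Eif2s3y at 0.115, 0.104, 52.9 and 50.3 TPM, and Kdm5d and Uty were likewise high in replicates 3 and 4 alone. In these genes the libraries go against a single animal behind the 1 donor identifier. In bulk RNA, fewer cells of a type and less RNA per cell cannot be told apart.

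**Figure D1:**
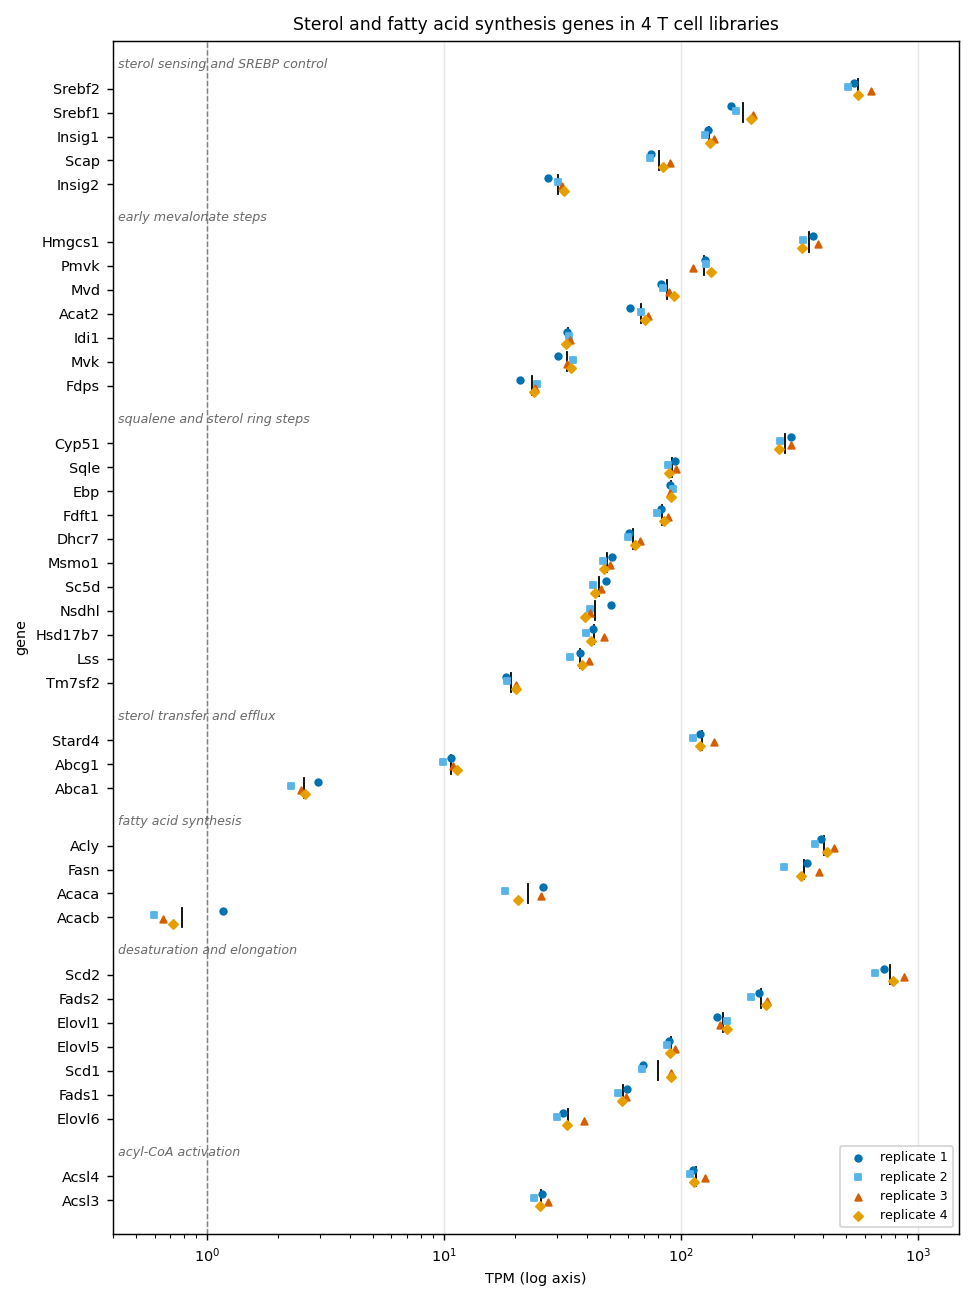
TPM of each of the 39 members (log axis) in replicates 1 to 4, by role and ordered by mean within a role; black ticks are means and the dashed line marks 1 TPM. Scd2 stands highest at 763 TPM, and Acacb alone falls below the line, in replicates 2 to 4.

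The SREBP genes were abundant, and Srebf2 exceeded Srebf1 in every library. Srebf2, whose protein mainly drives cholesterol genes, stood at 536, 507, 632 and 561 TPM in replicates 1 to 4, a mean of 559 ± 53.4 TPM. Srebf1, whose protein mainly drives fatty acid genes, stood at 162, 171, 201 and 199 TPM, a mean of 183 ± 19.6 TPM. Levels did not overlap between the genes, and Srebf1 made up 24.7 ± 1.27% of their joint TPM. The files sum the exons of a gene, so the transcripts for SREBP-1a and SREBP-1c were not told apart. Within libraries the difference in log2(TPM + 1), Srebf2 minus Srebf1, was 1.61 ± 0.10 (4 of 4 libraries).

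Both genes for the retention proteins were detected, as was that for the escort. Insig1, itself a known SREBP target, stood at 130.2, 127, 138 and 133 TPM, a mean of 132 ± 4.62 TPM. Insig2 stood at 27.5, 30.2, 31.4 and 32.0 TPM, a mean of 30.3 ± 2.00 TPM, below Insig1 in every library. The difference in log2(TPM + 1), Insig1 minus Insig2, was 2.09 ± 0.08. Scap, the sterol-sensing escort, stood at 80.8 ± 7.57 TPM.

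Among the early mevalonate steps, Hmgcs1 stood far above the rest. It encodes the cytosolic HMG-CoA synthase (ENSMUSG00000093930.1, mm10, chromosome 13, 119690462 to 119708086, plus strand) and was measured at 362, 327, 378 and 324 TPM, a mean of 348 ± 26.4 TPM. Pmvk, the kinase of the phosphomevalonate step, stood at 126, 127, 112 and 134 TPM, and was lowest in replicate 3, where no other member was lowest. Mvd, which decarboxylates the product of that kinase, stood at 87.2 ± 5.22 TPM and the mevalonate kinase gene Mvk at 33.2 ± 2.05 TPM.

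Acat2 encodes the cytosolic thiolase that begins the pathway, and stood at 61.3, 67.6, 72.6 and 70.6 TPM, below its mitochondrial counterpart Acat1 (98.9 ± 3.73 TPM) in each library. Acat2 minus Acat1 was -0.53 ± 0.16 in log2(TPM + 1), with the widest gap in replicate 1. Of the Acat2 principal transcript, 65.6% matched the neighbouring Acat3 at 95% identity or more, so reads may have been left uncounted in both, and Acat3 had 0, 0, 1 and 2 counts. Idi1, the isomerase that makes the allylic building block, was the steadiest of this role at 33.2, 33.7, 34.2 and 32.9 TPM, and 22.6% of its principal transcript matched 2 other genes. Fdps, the farnesyl diphosphate synthase, stood lowest at 21.0, 24.8, 24.2 and 23.9 TPM, but with the principal transcript length it stood at 49.5 ± 3.68 TPM, above Mvk (37.1) and Idi1 (26.9 TPM). Its level is uncertain, since 91.4% of its principal transcript matched 6 other genes and 26.7% of its exon bases in the files lay in another gene on the same strand, Gm43738.

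The 11 genes from squalene to the finished sterol were detected throughout, between 19.2 and 276 TPM in mean level. Cyp51, the lanosterol demethylase, stood highest at 291, 263, 291 and 261 TPM. Sqle, the squalene epoxidase, was next by mean at 94.1, 88.3, 95.5 and 89.0 TPM. Ebp (90.9 ± 1.14 TPM) lay close to Sqle, and above it in replicates 2 and 4. In Cyp51 and Sqle replicates 1 and 3 lay above replicates 2 and 4, by little. The squalene synthase gene Fdft1, whose principal transcript matched Gm6781 over 33.7% of its length, stood at 83.7 ± 3.59 TPM and the cyclase gene Lss at 37.7 ± 2.82 TPM. The later enzymes Msmo1 (48.8 ± 2.14), Hsd17b7 (42.9 ± 3.26), Sc5d (45.1 ± 2.62) and Dhcr7 (62.8 ± 3.53 TPM) differed less at the files' exon length than with the principal transcript length, which gave 102, 32.9, 31.7 and 90.0 TPM in the same order.

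Tm7sf2, which encodes a sterol C14 reductase, was the lowest of the role at 18.2, 18.5, 20.1 and 20.2 TPM. Lbr encodes a nuclear envelope protein with the same reductase activity and stood at 155, 153, 178 and 161 TPM. Tm7sf2 minus Lbr was -3.00 ± 0.06 in log2(TPM + 1), and -2.23 with the principal transcript length, so the Lbr transcript was the more abundant in every library. In the files 15.3% of the Tm7sf2 exon bases also belong to Vps51 on the same strand, and reads there may be uncounted.

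Members on the X chromosome were read beside Xist. Ebp, the sterol isomerase, stood at 89.8, 92.3, 90.1 and 91.2 TPM, the smallest spread of all members (SD of log2(TPM + 1) 0.02). Nsdhl, a sterol dehydrogenase (mm10, chromosome X, 72918557 to 72958514, plus strand), stood at 50.6, 41.4, 41.4 and 39.5 TPM. Replicate 1, which also held the most Xist, was apart from the other libraries in Nsdhl, while replicate 2, at 150.1 TPM of Xist, was not. The edgeR test did not call Nsdhl variable (adjusted p = 1.00). Acsl4, the third X-linked member, was highest in replicate 3. The part of Xist or of sex in these values was not tested.

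The gene for sterol transfer was abundant and those for sterol export were not. Stard4, which encodes a soluble sterol carrier, stood at 120.3, 113, 138 and 121 TPM. Abcg1 and Abca1 encode pumps that load sterol onto lipoproteins and are known targets of the oxysterol receptors LXR. Abcg1 stood at 10.7, 9.87, 10.9 and 11.4 TPM and Abca1 at 2.95, 2.25, 2.48 and 2.59 TPM, the lowest detected member. Abcg1 minus Abca1 was 1.72 ± 0.10 in log2(TPM + 1), and ran from 1.24 with counts per kilobase and TMM library sizes to 2.02 with a pseudocount of 0.1. Of the LXR genes, Nr1h2 stood at 93.2 ± 5.28 TPM, and Nr1h3 at 2.49, 0.812, 0.742 and 0.730 TPM from 105, 33, 26 and 51 counts. Nr1h3 and Abca1 were highest in replicate 1, as were 30.1% of all genes tested, and Abcg1 was highest in replicate 4.

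Cytosolic fatty acid synthesis was led by Acly and Fasn. Acly, which splits citrate into acetyl-CoA, stood at 390.4, 367, 444 and 415 TPM, a mean of 404 ± 33.1 TPM. Fasn, the fatty acid synthase, stood at 341, 273, 381 and 323 TPM, a mean of 329.6 ± 44.8 TPM. Both were lowest in replicate 2 and highest in replicate 3.

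The carboxylases that make malonyl-CoA were much lower, and of unequal level. Acaca, the cytosolic enzyme of synthesis, stood at 26.3, 18.1, 25.8 and 20.6 TPM. Acacb, the form at the mitochondrial surface that is known to restrain fatty acid oxidation, stood at 1.16, 0.598, 0.649 and 0.721 TPM from 188, 93, 87 and 193 counts. It was the 1 member not detected by the rule above, and was highest in replicate 1. Acaca minus Acacb was 3.73 ± 0.20 in log2(TPM + 1), and ran from 2.62 with counts per kilobase and TMM library sizes to 4.71 with a pseudocount of 0.1. The ratio of mean TPM was 29.0, and Acacb made 3.32 ± 0.733% of their joint TPM. Of the Acaca principal transcript, 64.3% matched Gm5182 at 95% identity or more.

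Desaturases and elongases included the most abundant member. Scd2 (mm10, chromosome 19, 44293676 to 44306864, plus strand) stood at 724, 658, 879 and 790 TPM, a mean of 763 ± 94.6 TPM. Its product, like that of Scd1, puts the first double bond into saturated acyl chains. Scd1 (chromosome 19, 44394451 to 44407709, minus strand) stood at 69.1, 68.9, 91.2 and 90.7 TPM, with replicates 1 and 2 low and replicates 3 and 4 high. Those were the libraries with high and low Xist, whose part in the difference was not tested. Scd1 took 8.72, 9.48, 9.40 and 10.3% of the joint TPM, and Scd2 minus Scd1 was 3.24 ± 0.11 in log2(TPM + 1). The paralogs Scd3 and Scd4 of the same cluster had at most 5 and 7 counts in a library. Of the Scd2 principal transcript 11.4% matched Scd1 at 95% identity or more, and of the Scd1 principal transcript 0% matched another gene. The part of shared reads in the Scd1 level and in the difference was not tested.

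Fads2 and Fads1 encode the desaturases that make long polyunsaturated chains from dietary ones. Fads2 stood at 213, 198, 232 and 229.5 TPM and Fads1 at 59.1, 54.1, 58.6 and 56.2 TPM. Fads2 minus Fads1 was 1.92 ± 0.09 in log2(TPM + 1). Elovl1, for very long saturated chains, stood at 142, 156, 147 and 157 TPM. Elovl5, for polyunsaturated chains, stood at 89.3, 87.4, 94.9 and 90.4 TPM, among the 3 steadiest members with Ebp and Idi1. Elovl6, which lengthens palmitate, stood at 31.9, 30.0, 39.1 and 33.2 TPM, and 15.2% of its principal transcript matched 3 other genes. The order Elovl1, Elovl5, Elovl6 held in 4 of 4 libraries, with Elovl5 minus Elovl1 at -0.73 ± 0.10 and Elovl5 minus Elovl6 at 1.41 ± 0.11 in log2(TPM + 1).

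Acyl-CoA synthetases join a fatty acid to coenzyme A. Acsl4, which prefers arachidonate, stood at 112, 109, 127 and 114 TPM, and Acsl3, tied to lipid droplets, at 26.0, 24.0, 27.4 and 25.5 TPM. Acsl4 minus Acsl3 was 2.12 ± 0.04 in log2(TPM + 1), the steadiest of all pairs.

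**Figure D2:**
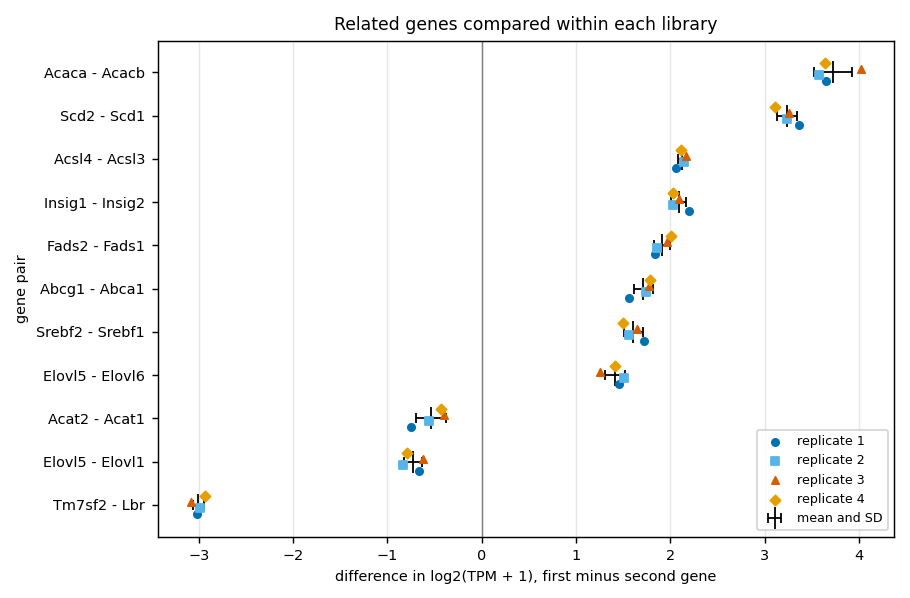
Difference in log2(TPM + 1), first minus second gene, for 11 pairs in each library (points), with mean and SD over 4 libraries (black). No pair changes sign, and Acsl4 minus Acsl3 has the smallest SD, 0.04.

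The 11 pairs compared a member with an isoenzyme, a partner or a counterpart. In an exact two-sided sign-flip test each reached the smallest p that 4 libraries allow, 0.125 (adjusted over 11 pairs, 0.125), so none could pass a threshold of 0.05. All 11 kept 1 sign in 4 of 4 libraries.

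Comparisons between genes depend on the length by which counts are divided. With the longest principal transcript, as above, the median protein-coding gene moved by -0.17 on the log2 scale. Against that shift 6 members stood over 1.5 times higher: Fdps at 49.5 ± 3.68, Msmo1 at 102 ± 4.66, Tm7sf2 at 31.6 ± 1.79, Lss at 60.3 ± 4.73, Dhcr7 at 90.0 ± 5.41 and Sqle at 128 ± 5.39 TPM. Srebf2, Hmgcs1, Fdft1, Abcg1, Scd2, Fads1 and Fads2 kept the files' length, which was the shorter. Every pair kept its sign on that scale, though Fads2 and Fads1 both kept the files' length.

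Whether members differed between libraries more than genes of like abundance do was tested in edgeR. The test covered all 13681 genes that passed a filter on low counts, which all 39 members passed. Spread that a member shares with such genes enters the dispersion, so a member not called need not be steady. None of the 39 members was called variable (0, edgeR adjusted p under 0.05), beside 0.687% of the genes tested, and DESeq2 marked 0 members as dispersion outliers. At an unadjusted p under 0.05 there were 2 members, Scd1 (edgeR adjusted p = 0.256) and Acaca (edgeR adjusted p = 0.301), beside 7.01% of the genes tested. The median SD of log2(TPM + 1) over the 39 members was 0.10, beside 0.12 over 12454 genes of at least 1 TPM. Only Acacb differed by more than 1.5 times between its highest and lowest library, at 1.95 times.

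Among members of at least 1 TPM the 3 largest SDs were those of Acaca (0.25), Scd1 (0.23) and Fasn (0.20), all of fatty acid synthesis or desaturation. By role, the median coefficient of variation was 15.6% for fatty acid synthesis and 5.62% for the squalene and sterol ring steps. The other roles lay between 6.10 and 9.37%. The fatty acid synthesis value includes Acacb, at 33.1% and under 1 TPM in mean level, beside 8.20% for Acly, 13.6% for Fasn and 17.7% for Acaca. These are descriptions of small lists, and the difference between roles was not tested. For fatty acid synthesis the median deviation from the gene mean in log2(TPM + 1) was 0.139, -0.203, 0.167 and -0.029 in replicates 1 to 4. With the median of genes of like length taken out it was 0.071, -0.098, 0.064 and 0.007. For the squalene and sterol ring steps it was -0.007, -0.070, 0.061 and -0.037, and then -0.005, -0.020, 0.007 and -0.003. The part of gene length in the spreads was not tested.

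**Figure D3:**
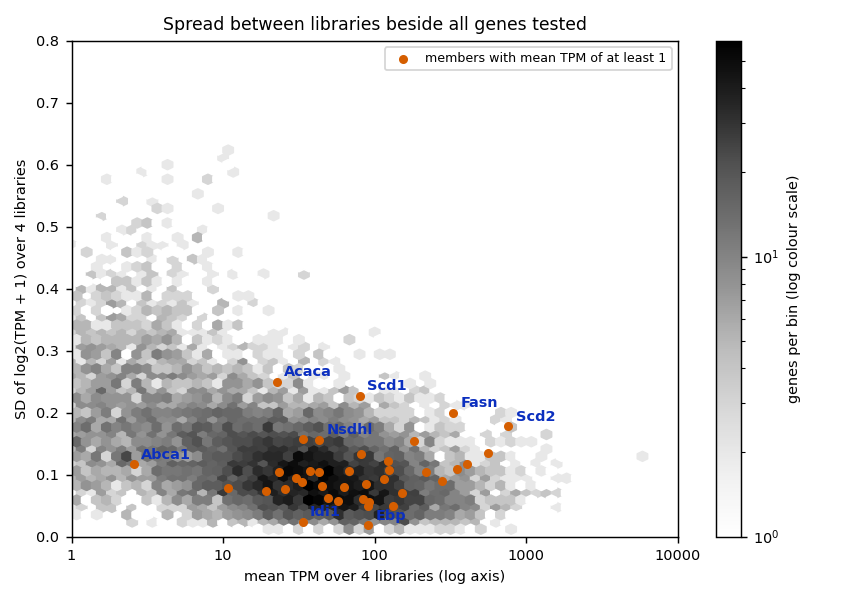
SD of log2(TPM + 1) over 4 libraries against mean TPM (log axis) for genes tested with a mean of at least 1 TPM (grey bins, 12444 genes; 10 lie above the axis) and for the members (orange). Acaca, Scd1 and Fasn have the largest SDs of the members shown, 0.25, 0.23 and 0.20.

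Members tended to be high and low in the same libraries. In TPM, 23 of 39 members (59.0%) were highest in replicate 3, beside 38.4% of all genes tested, and 25 (64.1%) were lowest in replicate 2, beside 41.1% of all genes tested. In replicate 1, 7 members were highest and 9 lowest, beside 30.1% and 20.7% of all genes tested, and in replicate 4 there were 6 and 4, beside 14.7% and 20%. In replicate 2, 3 were highest, beside 16.8%, and in replicate 3 Pmvk alone was lowest, beside 18.2%. The order high in replicate 3 and low in replicate 2 held for 18 members, beside 23.2% of all genes tested, Srebf2, Scd2, Acly and Fasn among them. The median member deviated by 0.07 from its own mean in replicate 3 and by -0.08 in replicate 2 (log2(TPM + 1)), beside 0.05 and -0.05 over all genes tested. This pattern rested on the scale. With log2 CPM and TMM factors, which do not divide by length, 12 members were highest in replicate 3 (30.8%, beside 26.1%) and 14 lowest in replicate 2 (35.9%, beside 27.4%). After the median of genes of like length was taken out of each library, a step added after seeing the data, the counts were 14 (35.9%, beside 24.5%) and 9 (23.1%, beside 25.6%). On those scales replicate 1 was the library most often lowest, for 17 members with TMM (43.6%, beside 27.2%) and 21 with length taken out (53.8%, beside 28.5%), against 9 in TPM. Replicate 4 was highest for 13 (33.3%, beside 18.8%) and 12 (30.8%, beside 19.7%), against 6 in TPM.

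**Figure D4:**
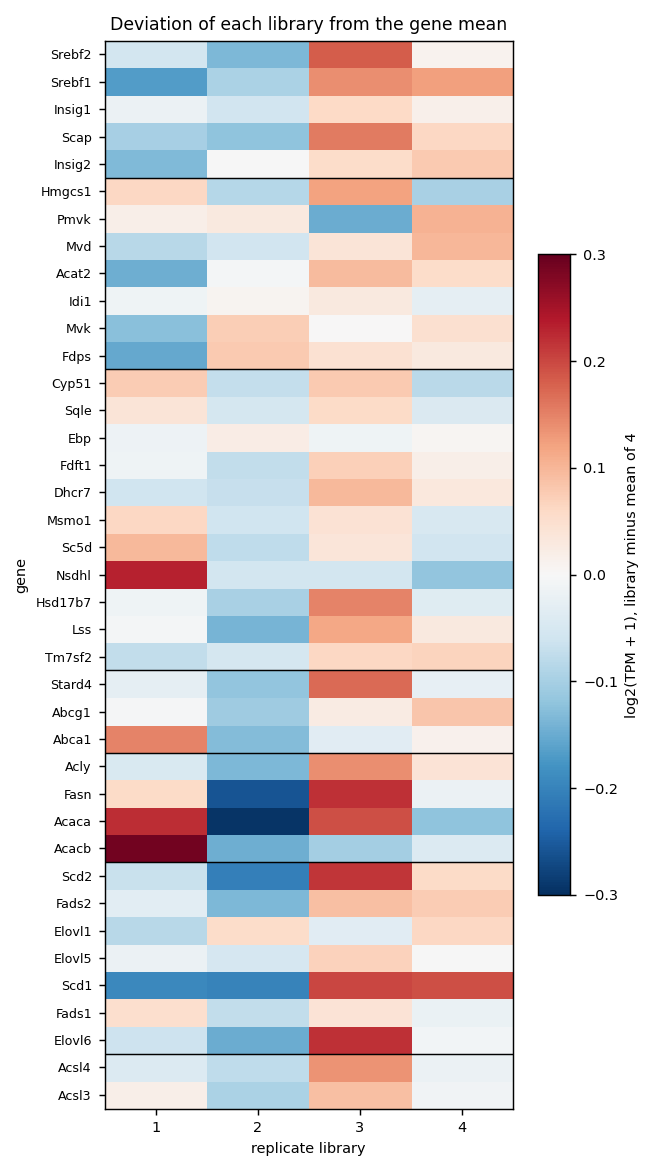
Deviation of each library from the gene's own mean in log2(TPM + 1) for the 39 members, by role (black lines), red above and blue below the mean. Replicate 3 is mostly red and replicate 2 mostly blue, while Acacb, Nsdhl and Acaca are high in replicate 1. Acaca in replicate 2 is the lowest value, at -0.29.

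Other genes of the same pathways, 88 in 6 lists, were also examined. In all, 72 of 88 were detected, and 0 of the 77 tested were called variable in edgeR, with 3 at an unadjusted p under 0.05 (Npc2, Nr1h3 and Acads, named after their values were seen) and 0 dispersion outliers in DESeq2. All 10 genes of SREBP processing and sterol-regulated turnover were detected, with the ubiquitin-conjugating enzyme gene Ube2g2 at 134 ± 5.79 TPM. In other sterol and isoprenoid synthesis 12 of 13 were detected, with Lbr at 162 ± 11.1 and the acetoacetyl-CoA synthetase gene Aacs at 116 ± 5.50 TPM. In sterol trafficking, storage and LXR 13 of 18 were detected, with the sterol transfer genes Gramd1b at 332 ± 41.6 and Gramd1a at 204 ± 14.3 TPM. The 5 not detected were Soat2, Nr1h3, Ch25h, Cyp27a1 and Vldlr.

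In other fatty acid synthesis and elongation 18 of 26 were detected, with Acsl5, an acyl-CoA synthetase gene, at 501 ± 7.72 TPM and the enoyl reductase gene Tecr at 266 ± 9.37 TPM. Acsl5 thus stood above both member synthetases, Acsl4 (115 ± 7.72 TPM) and Acsl3 (25.7 ± 1.42 TPM), in every library. The malic enzyme gene Me1, the lipogenic regulators Thrsp and Mlxipl, and Scd3, Scd4, Elovl2, Elovl3 and Hacd4 were not detected. All 4 genes of mitochondrial fatty acid synthesis were detected, led by Mcat (53.7 ± 2.09) and Mecr (51.6 ± 3.65 TPM). Genes of the opposite process, fatty acid oxidation, were detected in 15 of 17 cases, with the acyl-CoA dehydrogenase genes Acadvl at 269 ± 11.9 and Acadl at 217 ± 5.08 TPM. The exceptions were Cpt1b and Ppara.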

How the data were processed

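RNA was measured in 4 bulk libraries of 1 group. The deposited values are whole-number fragment counts per gene, 1 table per library. Per the file headers, the authors counted with featureCounts 1.4.6-p4 on GENCODE mouse release 13 exons, both ends aligned, reverse strand; the labels give mm10. The aligner's version is not given in the sources used here. The exon length in the deposited tables is in bases. TPM was computed here from counts and that length. Of 50600 genes, 50376 matched a GENCODE mouse release 21 symbol, the members among them.

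Variability was tested in edgeR 4.0.16 (R 4.3.3): TMM, filterByExpr, trended dispersion, an intercept-only fit, and a chi-square test of the deviance with 3 residual degrees of freedom, Benjamini-Hochberg over all genes. It was tested on simulated data. The biological coefficient of variation was 11.1%. DESeq2 1.42.0 served as an alternative. Pairs used log2(TPM + 1), which understates differences of low genes. Near copies were matches of at least 100 bases at 95% identity by BLAST+ 2.17.0 to GENCODE release 21 transcripts. Promoter windows are RefSeq's.

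Members and lists were chosen with earlier results of these data known. Values per library are given for the highest 2 and the lowest member of each role, all pairs, members under 1 TPM, the 3 largest and smallest spreads and X-linked members; of each other list, the 2 highest genes. A planned pair and 1 gene of these lists are not reported here. Alternatives were other TPM, count and filter thresholds, pseudocounts, normalizations, dispersions, gene lengths, scales and motif windows, and leaving out each replicate.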

Additional observations from a re-analysis of the deposited data

Results flagged for a closer look

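Nsdhl, the X-linked sterol dehydrogenase gene, had 1 library far from the others. Its 50.6 TPM in replicate 1 lay apart from 41.4, 41.4 and 39.5 TPM in replicates 2 to 4, a gap of 0.834 of the whole range, above the 95% critical value of Dixon's test for 4 samples. It was the 1 member of 39 so marked, and chance marks about 1 in 20 groups.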

How the results depend on the processing

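No paired analysis was possible because the labels give 1 group. The count of detected members was 39 at a TPM of 0.5 or at 10 counts, 37 at a TPM of 5 and 38 when any 1 replicate was left out. The count of variable members was 0 under every setting tried. Over all genes the 94 called became 617 with a common dispersion and 43 DESeq2 dispersion outliers, and ran from 38 to 87 when a replicate was left out: 46 without replicate 1, 38 without replicate 2, 87 without replicate 3 and 46 without replicate 4. The cause was not tested. Without a low-count filter 67 were called. Members highest in replicate 3 numbered 12 with TMM log2 CPM and 14 with length bins removed, against 23; those lowest in replicate 2 numbered 14 and 9, against 25; those lowest in replicate 1 numbered 17 and 21, against 9, and those highest in replicate 4 numbered 13 and 12, against 6. All 11 pairs kept their sign under the 7 settings tried, but only the principal transcript length could have changed one. The other settings keep the order of a pair's genes within each library, and that order was the same in every library. No setting restored reads that near copies may have left uncounted, as in Acat2 of the pair with Acat1. The sign-flip p of the pairs cannot pass, which says nothing of stability. Over settings the edgeR adjusted p ran from 0.254 to 0.872 for Scd1 and from 0.267 to 0.967 for Acaca, and the lowest for any member was 0.0786, for Acacb with a common dispersion. Leaving out 1 of 4 replicates cannot move a mean by 1 SD, so that setting says nothing of how steady the levels are. With the principal transcript length 34 of 39 means moved by 1 SD or more. With TPM over protein-coding genes 12 of 39 did. The principal transcript length also rescales the total that every TPM is taken from, so a mean can move with its own length unchanged. Srebf2, which kept the files' length, went from 559 to 388 TPM. Replicate 3, at 49613182 counts, is the shallowest library, and precision is lowest for Acacb.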
